A study of Drosophila melanogaster with 5 samples.

Results

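The sites described here are the ChIP-seq peaks of Pita, ZIPIC and Zw5 that lie outside the 5 large chromosome arms (2L, 2R, 3L, 3R and X) of the Drosophila melanogaster genome, build dm3. They were chosen by sequence name alone, and all peaks on chromosome 4, on a sequence with a name ending in Het, on U or on Uextra were taken. They make up 347 of the 5386 peaks in 6 deposited lists, with 158 from Pita, 127 from ZIPIC and 62 from Zw5. The study mapped the 3 proteins by chromatin immunoprecipitation and sequencing in whole embryos of the wild-type strain Oregon-R, from a 12 h collection at 25 °C, fixed with formaldehyde. The rabbit antibodies were directed at Pita residues 550 to 683, ZIPIC residues 84 to 257 and Zw5 residues 98 to 302. A library of input DNA and a library precipitated with preimmune rabbit serum were the controls, and each list was called for 1 protein against 1 of them. There was 1 library for each protein and control and no perturbed or depleted group, and whole embryos of this collection mix stages and cell types. Differences below therefore have no replicate error and no test, and the Wilson 95% intervals on shares and exact Poisson 95% intervals on fragment numbers cover counting error only.

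Pita, ZIPIC and Zw5 are zinc-finger DNA-binding proteins of Drosophila that are known as architectural or insulator proteins, which bind DNA near promoters and domain borders. Chromosome 4, the dot chromosome, is small, and its genes are interspersed with repeats and packed in chromatin that carries heterochromatin marks while many of the genes are active. The Het sequences of dm3 are assembled stretches of pericentric heterochromatin, rich in transposons and satellites. U and Uextra are collections of scaffolds that could not be placed on a chromosome, and Uextra holds the shorter and less reliable ones. Both collections are rich in repeats. No gene or sequence was assigned to a peak, because no annotation or genome of the dm3 build was used here.

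Across the whole lists, Pita had 1845 peaks against input and 1402 against preimmune serum, ZIPIC 575 and 514, and Zw5 695 and 355. The fold of a peak is the authors' value, which sets its summit against the control's local background. The fragments stacked at a summit (the pileup) and the background in fragments were solved from the deposited fold and p-value. Against input, Pita had a lowest background of 9.18 fragments, Zw5 of 10.3 and ZIPIC of 1.06, so the ZIPIC library was several times shallower. Levels are therefore also given as multiples of the lowest background in the same list. The peak names place Pita and Zw5 on chromatin preparation A and ZIPIC on preparation B. For differences of ZIPIC from Pita and Zw5, antibody and preparation therefore cannot be told apart. The sources used here do not give the preparation of the controls.

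In the input lists, Pita peaks were spread over all 4 classes of sequence, with the largest number on Uextra. Most ZIPIC and Zw5 peaks of these lists lay on Uextra. Against input, Pita had 26 peaks on chromosome 4, 14 on Het sequence, 24 on U and 41 on Uextra, together 5.69% of its list. ZIPIC had 1, 3, 9 and 63 in the same order, together 13.2% of its list, of which Uextra alone held 11.0% (Wilson interval 8.66 to 13.8%). Zw5 had 9, 4, 9 and 33, together 7.91%. Densities were taken per megabase up to the highest peak end of each sequence that carried a peak in any list. Sequence past these ends and any sequence without a peak were left out, so the densities are upper values. For Het, 5.45 Mb were counted, with XHet only up to 14083. Pita reached 22.9 peaks per megabase on chromosome 4, above the 15.0 of the large arms. It had 2.57, 2.39 and 1.42 on Het, U and Uextra. ZIPIC was sparse on chromosome 4, with 0.882 peaks per megabase against 4.29 on the large arms, while Zw5 had 7.93 against 5.51. Against preimmune serum, Zw5 had no peak on chromosome 4 and 2.99 per megabase on the large arms. Uextra had the longest span of the 4 classes, 28.8 Mb. Its densities against input, 2.18 for ZIPIC and 1.14 for Zw5, were below those of the large arms. On Het and U, ZIPIC had 0.550 and 0.898, and Zw5 0.734 and 0.898. Pita peaks on chromosome 4 also lay close together, since 13 of 26 had another Pita summit within 5 kb, compared with 21.0% of the 1740 on the large arms. These 13 included weak peaks called against input alone, such as 579201 to 579480 (3.93-fold) beside 577652 to 579017. How far reads could be placed uniquely in each class is not known from the lists, so its part in these densities was not tested.

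The peaks against preimmune serum gave another picture on Uextra. They numbered 17, 11, 16 and 9 on chromosome 4, Het, U and Uextra for Pita, 1, 2, 9 and 39 for ZIPIC, and 0, 2, 3 and 2 for Zw5. Thus Uextra went from 41 to 9 Pita peaks and from 33 to 2 Zw5 peaks with the change of control, and from 63 to 39 ZIPIC peaks. On Het sequence the Pita count went from 14 to 11, a drop of about the same proportion as that of the large arms, from 1740 to 1349.

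Of the 105 Pita peaks called against input, 49 overlapped a peak called against preimmune serum by at least 1 bp (46.7%, interval 37.4 to 56.2%), compared with 74.9% over the whole Pita list. Uextra was lowest, with 7 of 41 (17.1%, 8.53 to 31.3%), while Het had 11 of 14, chromosome 4 had 16 of 26 (61.5%) and U had 15 of 24 (62.5%). Without Uextra the share was 65.6% (53.4 to 76.1%), below the 74.9% of the whole list and the 76.6% of the large arms. For ZIPIC, 46 of 76 were called against both controls (60.5%), where the whole list had 84.9%. Without Uextra the ZIPIC share was 61.5% of 13 peaks (35.5 to 82.3%). Zw5 kept 4 of 55 (7.27%, 2.86 to 17.3%), where the whole list had 49.8%, and these were 2 on Het and 2 on U. None of the 9 Zw5 peaks on chromosome 4 (interval 0 to 29.9%) and none of the 33 on Uextra (0 to 10.4%) was called against preimmune serum.

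**Figure D1:**
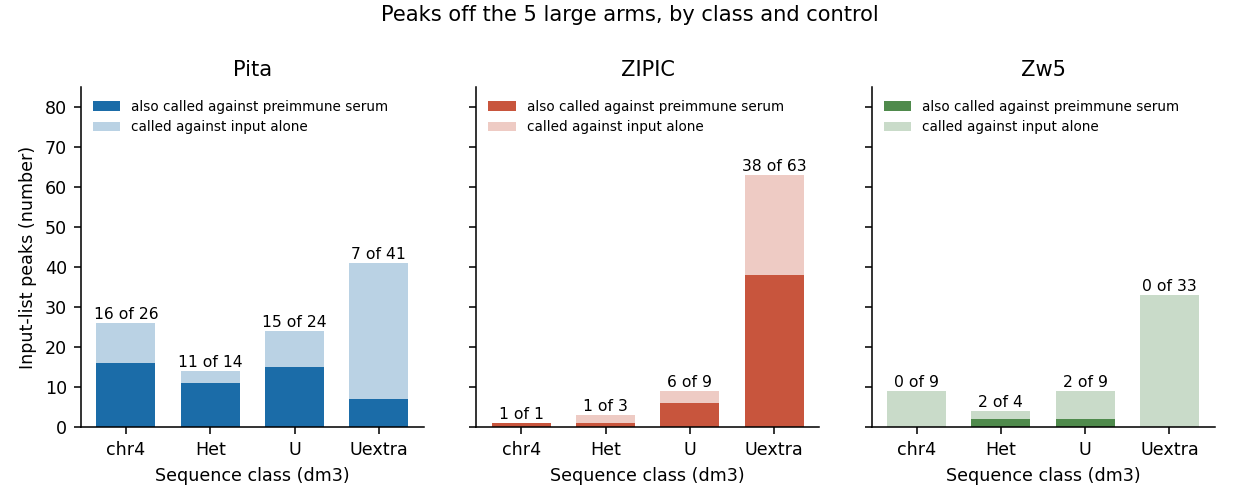
Number of peaks called against input on chromosome 4, Het, U and Uextra for each protein. The full colour marks those that overlap a peak of the same protein called against preimmune serum, and the numbers above the bars give them of the total, from 16 of 26 for Pita on chromosome 4 to 0 of 33 for Zw5 on Uextra.

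The difference on Uextra was also present among peaks of similar fold. On the large arms, the share called against both controls rose with the fold over input, from 164 of 551 Pita peaks under 5-fold to 283 of 304 between 5- and 10-fold and 885 of 885 from 10-fold. Pita peaks of at least 10-fold were called against both at 9 of 9 on chromosome 4, 5 of 5 on Het and 3 of 3 on U, but at 1 of 4 on Uextra. Between 5- and 10-fold the Pita shares were 6 of 7, 5 of 6, 9 of 11 and 5 of 13 in the same order. In ZIPIC, peaks of at least 10-fold were called against both at 310 of 311 on the large arms and at 25 of 36 on Uextra. Those of U were at 3 of 4 and that of chromosome 4 at 1 of 1. Between 5- and 10-fold the ZIPIC shares were 122 of 163 on the large arms, 11 of 24 on Uextra, 2 of 4 on U and 1 of 3 on Het. The lower ZIPIC shares were therefore not particular to Uextra. The 9 Zw5 peaks on chromosome 4 were mostly weak, with 8 under 5-fold, a range in which 75 of 347 large-arm Zw5 peaks were called against both. These fold ranges were chosen after the values were seen.

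Most peaks of chromosome 4 were those of Pita. Its 26 peaks there had a median of 6.71-fold over input (range 2.55 to 41.5) against 10.6-fold on the large arms, but the chromosome also held some of the strongest Pita sites. Peaks above 30-fold were 6 of 26 (23.1%), close to the 20.2% of the large arms. These 6 sites, all called against both controls, can be read in order along the chromosome. The first lay at 89100 to 90100 (36.4-fold over input, 16.5-fold over preimmune serum), followed by 506839 to 507880 (35.8 and 27.8) and 742184 to 743368 (30.6 and 16.6). Further along were 855269 to 856942 (41.5 and 20.5), 1000168 to 1001292 (38.3 and 18.9) and 1133237 to 1134395 (40.5 and 16.9). The widest of all Pita peaks off the large arms was the one at 855269, with 1674 bp and 421 fragments at its summit (interval 382 to 463).

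Among the other 10 Pita sites of chromosome 4 called against both controls, those at 577652 to 579017 (19.0-fold over input) and 445068 to 445671 (15.2) were the highest. The first of these was split into 2 peaks against preimmune serum, of 6.88- and 2.81-fold, and the second had 5.93-fold. At 110303 to 110825 the fold over input was 11.2 and that over preimmune serum 3.40, the widest gap between the controls in relative terms among the 16 sites, with a ratio of 3.30. The site at 427417 to 427954 had 9.48- and 4.39-fold and that at 1005333 to 1005802 had 8.38- and 5.62-fold over the 2 controls. At 4 others the controls gave similar values, namely 276441 to 276764 (5.99 over input and 4.71 over preimmune serum), 436783 to 437341 (6.58 and 6.02), 733617 to 733997 (7.05 and 6.76) and 509920 to 510562 (6.85 and 7.60). The weakest, at 522946 to 523455, had a slightly lower fold over input (4.35) than over preimmune serum (5.42). Peaks called against input alone were low, with a median of 3.93-fold and a highest value of 5.11-fold at 510773 to 511157.

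The preimmune background was above its lowest level at the chromosome 4 Pita sites called against both controls, except at 522946 to 523455 (1.00 times). Its multiple had a median of 1.94 at the 16 sites of chromosome 4, compared with 1.34 on the large arms, 1.43 on Het and 1.00 on U. The input background was at or closer to its lowest level, with a median multiple of 1.00 over all 26 Pita peaks of the chromosome. Its highest value was 1.37, at 522946 to 523455. The fold over input was a median 1.93 times that over preimmune serum, against 1.22 times on the large arms.

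On chromosome 4, 7 of the 9 Zw5 peaks overlapped a Pita peak (47.5% of the whole Zw5 list did), and 2 did not. The 3 input lists share the input library and the 3 preimmune lists the preimmune library, so an overlap between proteins can come from either and is given only to set values side by side. Of the 26 Pita peaks, 7 overlapped a Zw5 peak (17.7% of the whole Pita list did), and these had a median Pita fold of 36.4 (9.48 to 41.5) with 7 of 7 called against both controls. The 19 without Zw5 had a median of 4.62 (2.55 to 30.6), with 9 of 19 called against both. A gap of the same direction was found on the large arms, with medians of 30.8 over 278 peaks and 8.08 over 1462, of which 248 and 1084 were called against both. Zw5 itself was low at these 7 sites, from 2.92-fold at 427583 to 427861 to 6.64-fold at 1000499 to 1000910. In between were 3.01-fold at 89374, 3.54 at 855599, 3.72 at 1133437, 3.98 at 445304 and 4.34 at 507178. Its summits were a median of 83 bp (16 to 545) from those of Pita. The 2 Zw5 peaks without Pita, at 436186 to 436428 and 918525 to 918933, had 3.63- and 2.73-fold.

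A single region of the chromosome, 1000168 to 1001292, held all 3 proteins. Pita had 389 fragments at its summit (351 to 430), ZIPIC 55 (41.4 to 71.6) and Zw5 74 (58.1 to 92.9). In multiples of the lowest background these were 42.4 for Pita, 52.0 for ZIPIC and 7.19 for Zw5. ZIPIC, whose only peak on the chromosome this was (1000507 to 1000878), had a fold of 27.2 over input, against 17.7 over preimmune serum. Zw5 had no peak there against preimmune serum. The summits of the 3 proteins spanned 102 bp.

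**Figure D2:**
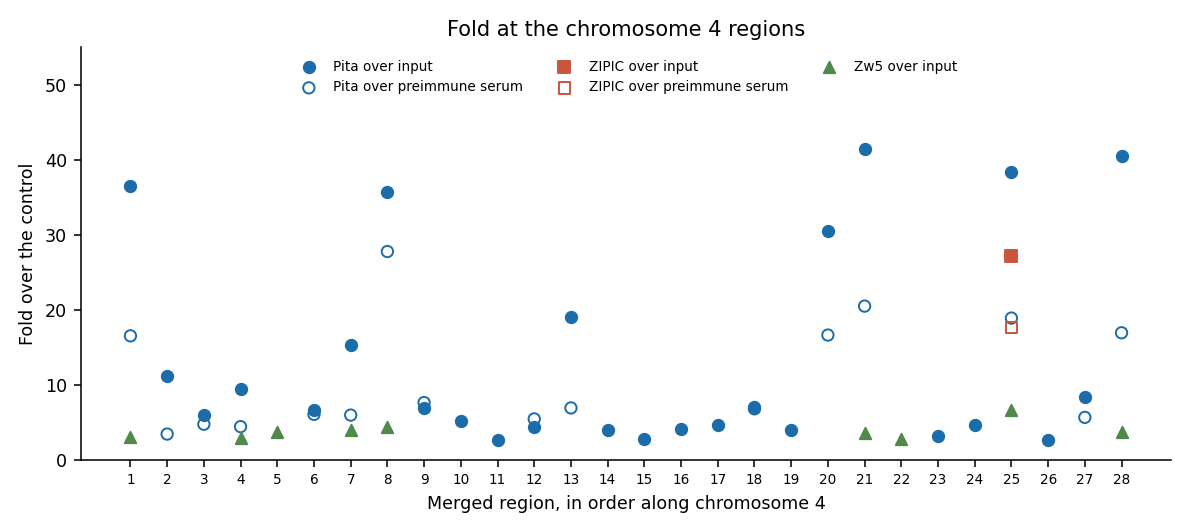
Fold over each control (vertical axis, linear) at the 28 merged regions of chromosome 4 with a peak against input, in order along the chromosome and not to scale. Filled symbols are folds over input and open symbols folds over preimmune serum, and Pita stands above 30-fold over input at 6 regions while all 9 Zw5 values lie between 2.73 and 6.64.

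On Het sequence, the 14 Pita peaks had a median of 8.10-fold over input (2.93 to 42.3), below the 9.48-fold of the whole list, and 5 of them were above it. The share called against both controls, 78.6%, was near that of the whole list. The strongest was at 3RHet 2377815 to 2378966, with a fold of 42.3 over input, the eighth-highest of the whole Pita list, against 35.7 over preimmune serum. Its summit held 430 fragments (390 to 473). Next came 3RHet 2106761 to 2107709 (31.8 and 13.3), 2RHet 822648 to 823212 (27.1 and 18.4) and 2RHet 2629435 to 2629983 (22.5 and 15.3). Below these, 2RHet 1992550 to 1992980 had 10.6- and 6.44-fold, 3RHet 2349164 to 2349897 had 8.96- and 8.49-fold, and 2RHet 369929 to 370503 had 8.25- and 3.77-fold. The remaining 4 called against both controls had 7.96- and 7.40-fold at XHet 13434 to 14083, 7.17 and 4.37 at 3RHet 673717 to 674122, 5.50 and 3.51 at 2RHet 78089 to 78439, and 4.81 and 4.51 at 2RHet 830742 to 831093. Of the 3 called against input alone, the highest was 2RHet 1857606 to 1857909 with 5.50-fold.

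Zw5 had a higher fold than Pita at 1 Het region. At 2RHet 369963 to 370575, Zw5 had 13.6-fold over input, with 153 fragments (130 to 179), and 4.52-fold over preimmune serum, where Pita had 8.25 and 3.77. The preimmune background there was 3.15 times its lowest level in the Zw5 list. At 2RHet 2629606 to 2630062, Zw5 had 6.82- and 6.39-fold beside the stronger Pita peak. The other 2 Zw5 peaks on Het sequence, at 3RHet 2378319 to 2378603 (4.43-fold) and within 3RHet 2106761 to 2107709 (4.06-fold), were called against input alone.

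ZIPIC had 3 Het peaks, all on 3RHet. The only one called against both controls, 1506733 to 1506884, had 5.34- and 4.94-fold and rested on 10 fragments (4.80 to 18.4). The highest against input alone was 2308532 to 2308780 with 8.26-fold. The last was at the 3RHet 2106761 region, where ZIPIC had 5.71-fold over input while Pita stood at 31.8-fold and Zw5 at 4.06-fold, all 3 summits within 25 bp. In multiples of the lowest background, Pita had 43.5 there, ZIPIC 12.3 and Zw5 6.12. At the chromosome 4 region of all 3 proteins, these multiples were 42.4, 52.0 and 7.19. By fold over input, the order of the proteins was the same at both regions.

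On U, 19 of 24 Pita peaks overlapped no other protein, a share close to the 1474 of 1845 in the whole Pita list. Of these 19, 13 were called against both controls (68.4%), compared with 73.7% of the 1474. The strongest site was at 3395995 to 3396604, with a fold of 33.6 against input and 26.3 against preimmune serum. Next were 6218492 to 6218948 (15.6 and 14.5), 154305 to 155212 (12.9 and 7.80), 9534053 to 9534368 (9.33 and 8.67) and 4015813 to 4016258 (9.22 and 3.28). The highest against input alone was 7544711 to 7545241, at 8.09-fold. The Pita peaks that stood alone had a median input background at the lowest level, 1.00 times, whereas the 4 Pita peaks shared with both other proteins had 2.08 times.

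ZIPIC had 9 peaks on U, and the 6 called against both controls included the 5 highest of that kind. The highest, 9783099 to 9783440, had 17.0-fold over input but 4.40-fold over preimmune serum, with a preimmune background of 11.7 times the lowest. At 9151118 to 9151482 the values were 15.2- and 1.999-fold, with a preimmune background of 42.5 times. The others showed smaller gaps, with 10.2- and 8.32-fold at 9935968 to 9936257, 7.77-fold over either control at 4880233 to 4880466 and 7.46- and 10.7-fold at 10021916 to 10022175. The highest ZIPIC peak against input alone was 9142982 to 9143262, at 14.0-fold, which is the region with the highest Zw5 peak of that kind, 9142909 to 9143337 at 4.96-fold. Zw5 was called against both controls at 2 regions of U, with 4.21- and 6.13-fold at 5303788 to 5304664 and 3.04- and 4.58-fold at 10021835 to 10022181.

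All 3 proteins were present against input in 4 regions of U, and in 2 of these all 3 were also called against preimmune serum. These 2 were 5303788 to 5304664 (Pita 2.40-fold over input, ZIPIC 4.85 and Zw5 4.21) and 10021835 to 10022233 (3.19, 7.46 and 3.04). At 9142909 to 9143337 the folds over input were 4.97, 14.0 and 4.96, and no protein was called against preimmune serum. At 9151041 to 9151560 they were 3.88, 15.2 and 3.75, and only ZIPIC was called against preimmune serum. The input background was raised in all 4, with multiples of 2.09 to 4.76 in the ZIPIC list.

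On Uextra, the stronger Pita peaks called against both controls were 164150 to 164621 (13.0-fold over input, 12.6-fold over preimmune serum), 667671 to 668076 (7.96 and 6.69), 1002152 to 1002398 (6.39 and 5.96), 727810 to 728056 (5.99 and 5.60) and 576999 to 577230 (5.40 and 5.05). The controls gave similar values at each. Of the 7 such Pita peaks, 6 were among the 9 that overlapped no other protein. The other 32 Pita peaks on Uextra overlapped another protein, 31 of them both, and 1 of the 32 was called against both controls.

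Off the large arms, regions of all 3 proteins against input were found mostly on Uextra. Over all members, 48 of 105 Pita peaks (45.7%) overlapped a peak of either other protein, where 20.1% of the whole list did, as did 39 of 76 for ZIPIC (51.3%, whole list 42.6%) and 50 of 55 for Zw5 (90.9%, whole list 63.7%). On Uextra the counts were 32 of 41 for Pita, 32 of 63 for ZIPIC and 33 of 33 for Zw5. Other classes reached similar shares for ZIPIC and Zw5, as ZIPIC had 5 of 9 on U, and Zw5 had 4 of 4 on Het, 7 of 9 on chromosome 4 and 6 of 9 on U. Overlap with both other proteins was found for 31 of 41 Pita, 31 of 63 ZIPIC and 31 of 33 Zw5 peaks there, and for 4 of 24, 4 of 9 and 4 of 9 on U, where the whole lists had 4.72%, 15.3% and 12.8%. When the input lists were merged, 149 regions lay off the large arms, and all 3 proteins were present in 37 (24.8%, 18.6 to 32.3%), compared with 52 of 2390 (2.18%) on the large arms. Uextra held 31 of the 37, out of 73 regions (42.5%, 31.8 to 53.9%), and chromosome 4 held 1 of 28. The preimmune lists, merged the same way, had all 3 proteins in 3 of 99 regions off the large arms and in 20 of 1945 on them. Of these 3, U held 2 and Uextra 1.

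At the 31 Uextra regions of all 3 proteins, Pita and Zw5 stood at nearly the same level. In multiples of the lowest background, the Pita pileup was a median of 8.93 (4.58 to 28.9) and the Zw5 pileup 7.87 (4.66 to 21.7). Their ratio per region was a median of 1.10 (0.934 to 1.93) and within 1.5 times in 29 of 31 regions. The 4 U regions of all 3 proteins were similar, with a median ratio of 1.10 (0.716 to 1.12), within 1.5 times in all 4. At the 52 large-arm regions of all 3 proteins, the ratio was a median of 5.27 (0.2009 to 11.9) and within 1.5 times in 8. ZIPIC stood higher than both at all 31, at a median of 58.6 (15.1 to 176), which was a median of 5.85 times the Pita value. That ratio was a median of 4.39 (2.45 to 5.76) at the 4 U regions and 1.42 (0.203 to 34.1) on the large arms. The antibody and the preparation of ZIPIC cannot be told apart in these ratios. The lowest multiple of any peak in the whole input list was 7.56 for ZIPIC, against 2.61 for Pita and 2.62 for Zw5. A called ZIPIC peak therefore starts from a higher multiple. The 3 summits of a Uextra region lay within a median span of 8 bp, compared with 74.5 bp on the large arms. Pita was called against both controls at 1 of the 31, ZIPIC at 17 and Zw5 at 0, compared with 44, 44 and 22 of 52 on the large arms.

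The control libraries were also high at many of these 31 regions. Where ZIPIC was called against preimmune serum, the preimmune background was a median of 28.8 times its lowest level, with a highest value of 87.4, and it exceeded 20 times at 13 of 17 regions. At the 44 large-arm regions of the same kind the median was 1.52 and the highest 9.10. In 13 of the 17 Uextra regions the preimmune multiple was above the pileup multiples of both Pita and Zw5, against 1 of 44 on the large arms. Preimmune values for the other 14 regions are not known, since no list called a peak there against preimmune serum. The part of these control levels in the overlap of the lists was not tested.

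The input background was at its lowest level in all 3 lists at 8 of the 31 regions, and these gave the largest ZIPIC folds over input. The highest was Uextra 5223878 to 5224579, where ZIPIC had 90.8-fold over input, with 186 fragments (160 to 215), and 1.999-fold over preimmune serum. Pita had 26.1-fold and Zw5 19.8-fold there, both their highest on Uextra and both against input alone. The preimmune background was 87.4 times its lowest level, the highest in these lists off the large arms. Second was 7039284 to 7039825, where ZIPIC had 77.7- and 5.91-fold over the 2 controls, Pita 7.76-fold over input and Zw5 4.96. At 27346760 to 27347379 ZIPIC had 66.1- and 5.33-fold, Pita 9.73 and Zw5 7.26, and at 26599203 to 26599710 ZIPIC had 64.1- and 4.16-fold, Pita 15.5 and Zw5 8.15. In each of these first 4 regions ZIPIC had the highest fold over input and Zw5 the lowest.

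The other 4 of the 8 followed the same order of proteins. At 19603759 to 19604179 ZIPIC had a fold of 53.9 over input, against 3.36 over preimmune serum, with Pita at 8.15 and Zw5 at 6.02. At 2684385 to 2684921 the ZIPIC values were 52.0 and 13.1, with Pita at 6.39 and Zw5 at 5.31. This region had the lowest preimmune background of the 8, at 6.75 times, and the highest ZIPIC fold over preimmune serum. At 17025955 to 17026356 ZIPIC had 50.0 and 3.94, Pita 6.58 and Zw5 4.69, and at 27485225 to 27485668 ZIPIC had 50.0 and 1.81, Pita 11.0 and Zw5 7.53. These 8 regions held 8 of the first 10 folds of the ZIPIC input list, while none of the first 50 in the ZIPIC preimmune list lay off the large arms.

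The input background was raised at the other 23 regions, between 1.32 and 6.54 times the lowest in the ZIPIC list. ZIPIC folds over input were lower there, from 5.13 to 22.7, with Pita from 2.16 to 5.20 and Zw5 from 1.90 to 4.79. ZIPIC was called against both controls at 9 of the 23. Its fold was 22.7 over input and 2.74 over preimmune serum at 3204577 to 3205082, 17.5 and 2.099 at 22164539 to 22165055, and 16.5 and 2.20 at 26582130 to 26582567. It was 16.3 and 2.33 at 3080672 to 3081366, 15.5 and 2.25 at 6950052 to 6950491, and 15.1 and 1.64 at 18119292 to 18119839. These 6 had a preimmune background of 28.5 to 67.5 times the lowest. At the remaining 3 it was at most 2.05 times, and the ZIPIC folds over the 2 controls were closer, with 9.26 and 13.6 at 27883343 to 27883751, 8.16 and 9.81 at 3413520 to 3413920, and 7.10 and 5.36 at 8792165 to 8792596. The first of these 3 is the only one of the 31 regions where Pita was called against both controls (4.03- and 4.96-fold).

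At the last 14 regions all 3 proteins were called against input alone. ZIPIC was highest at 14301823 to 14302240 (14.9-fold over input), 22840118 to 22840525 (14.2) and 15572614 to 15573012 (14.1). Values between 10 and 13 were found at 12698757 to 12699168 (12.2), 17985494 to 17985929 (11.9), 8511043 to 8511490 (11.8), 12442281 to 12442787 (11.1) and 17373599 to 17374068 (10.5). The others were 13674418 to 13674756 (8.06), 10241282 to 10241747 (7.39), 24365599 to 24366081 (6.87), 25124506 to 25124908 (5.66), 18018479 to 18018785 (5.33) and 6346294 to 6346811 (5.13). Pita had 2.16- to 5.05-fold and Zw5 1.90- to 4.68-fold at these 14 regions.

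**Figure D3:**
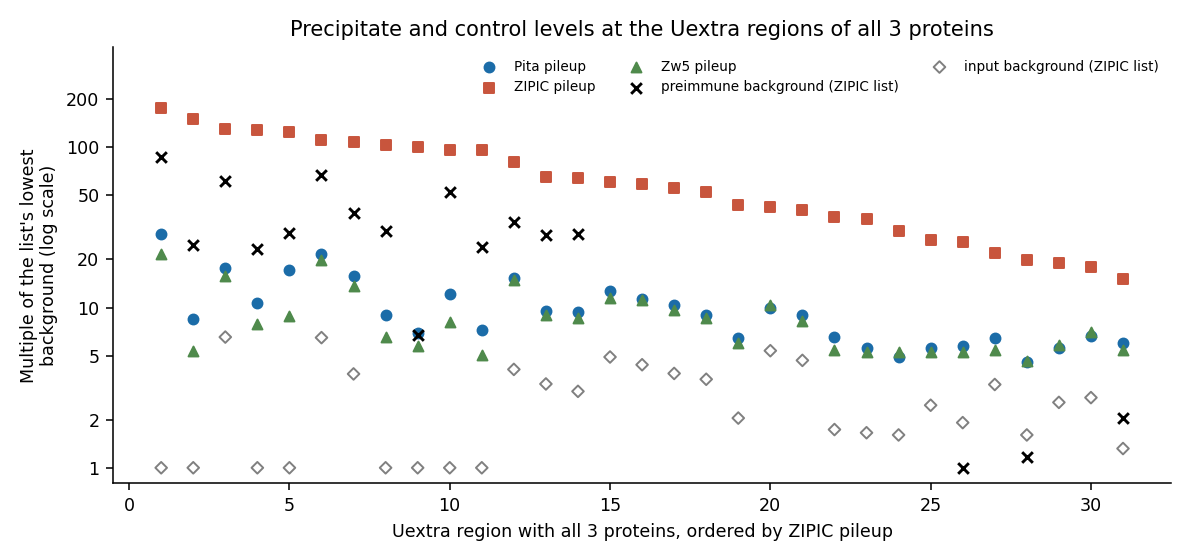
Pileups of the 3 proteins and control backgrounds at the 31 Uextra regions of all 3 proteins, as multiples of the lowest background of each list (vertical axis, logarithmic), ordered by the ZIPIC pileup. Pita and Zw5 lie within 1.5 times of each other at 29 regions, and the preimmune background, known at 17 regions, is above both of them at 13.

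Away from these shared regions, 31 ZIPIC peaks on Uextra overlapped neither other protein. Their median fold over input was 9.72 (4.19 to 27.7), and 20 of 31 were called against both controls (64.5%), compared with 83.3% of the 330 such ZIPIC peaks in the whole list. These 20 had a median of 6.72-fold over preimmune serum. The preimmune background at those 20 was a median of 1.76 times the lowest, and it was above 5 times at 4. Over the ZIPIC peaks against preimmune serum, a background above 20 times was found at 14 of 51 members, 13 of them on Uextra and 1 on U, where the whole list had 2.72%, and at 0 of 463 on the large arms. Above 5 times were 20 of 51 members (whole list 5.25%) and 7 of 463 on the large arms.

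**Figure D4:**
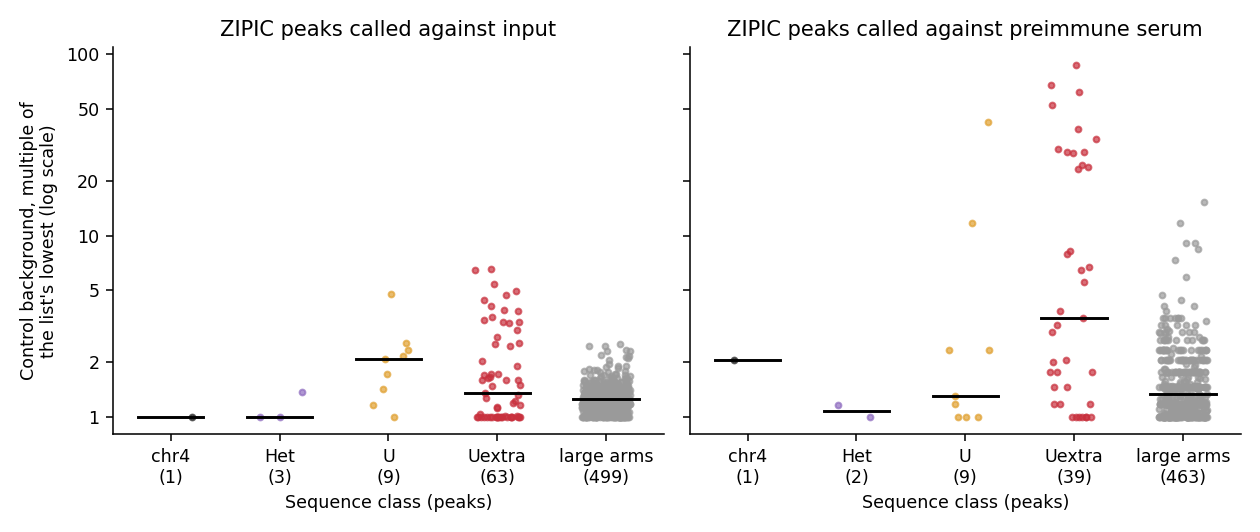
Control background at ZIPIC peaks called against input (left) and against preimmune serum (right), as a multiple of the lowest background in the list (logarithmic axis), with 1 point per peak and a bar at the median. On Uextra the preimmune background reaches 87.4 times and the input background 6.54 times, while on the large arms they reach 15.3 and 2.51 times.

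The input background was raised at members too, though less. A multiple above 1.5 was found at 24 of 105 Pita peaks (whole list 6.67%), 35 of 76 ZIPIC peaks (17.9%) and 22 of 55 Zw5 peaks (13.4%). All of these lay on U and Uextra, with 6 and 18 for Pita, 6 and 29 for ZIPIC and 6 and 16 for Zw5. None lay on chromosome 4 or Het sequence.

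For ZIPIC on Uextra, the controls gave widely different folds. At its 38 Uextra peaks called against both controls, the fold over input was a median of 2.45 times that over preimmune serum, with a range of 0.486 to 45.4. On the large arms the median was 1.02 times over 442 peaks, with a range of 0.572 to 7.91. Pita on Uextra had a median of 1.07 times over 7 peaks.

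**Figure D5:**
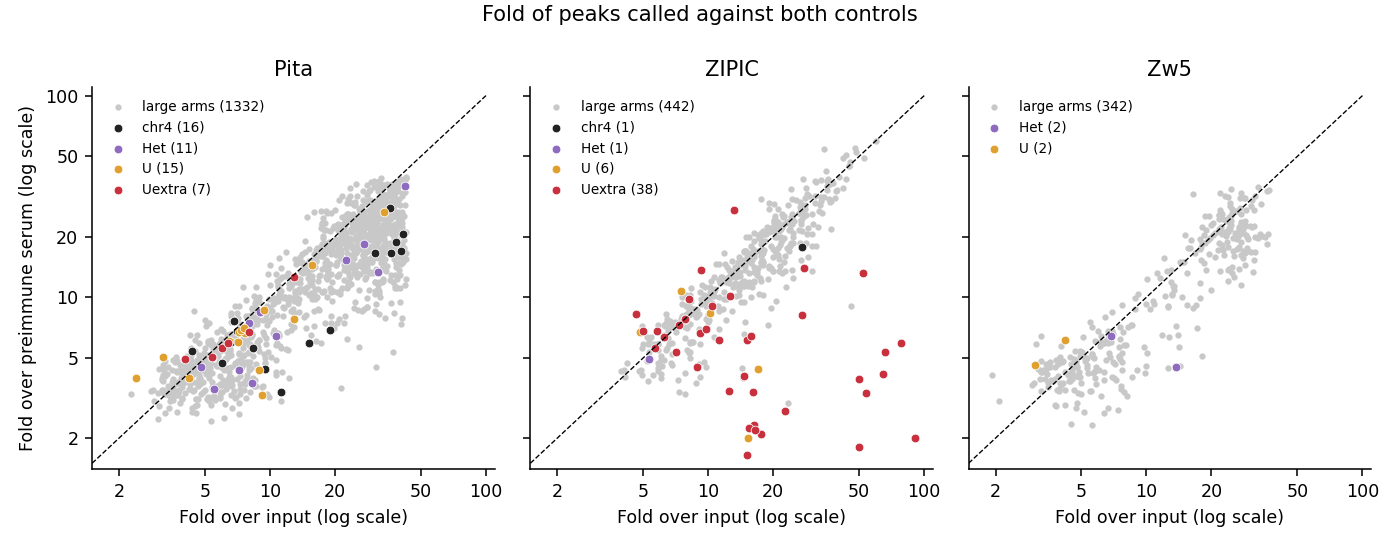
Fold over input (horizontal axis) and over preimmune serum (vertical axis), both logarithmic, of peaks called against both controls, with large-arm peaks in grey and the dashed line at equal folds. The 8 ZIPIC peaks on Uextra from 50.0- to 90.8-fold over input lie at 1.81- to 13.1-fold over preimmune serum, and chromosome 4 peaks of Pita lie mostly below the line.

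A few members were called against preimmune serum with no overlapping peak against input. Pita had 3 of its 9 such peaks off the large arms (0.642% of its list was of this kind), ZIPIC 5 of 19 (3.70%) and Zw5 3 of 7 (1.97%). Uextra 21021251 to 21021802 was listed for all 3 proteins, with 5.78-fold for Pita, 6.24-fold for ZIPIC (21021544 to 21021748) and 5.73-fold for Zw5 (21021258 to 21021714). Pita and Zw5 also shared U 4470646 to 4471197 (4.87-fold, with Zw5 at 4.75 in 4470774 to 4471237) and Uextra 621597 to 622056 (4.78-fold, with Zw5 at 4.50 in 621679 to 622056). The other 4 ZIPIC peaks were 3RHet 1202125 to 1202302 (6.32-fold), U 1042015 to 1042221 (7.29), U 2834609 to 2834776 (5.34) and U 2835135 to 2835286 (3.44). The preimmune background was at most 1.17 times its lowest level at 10 of these 11 peaks, and it was 2.35 times the lowest at U 2835135.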

How the data were processed

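Per the labels' protocols, 50 µg of chromatin went into each precipitation and libraries were read in 51 single-read cycles. Reads were handled with Bowtie, cutadapt and, for peaks, MACS2 2.1.0.20140616 on dm3, per the submitters' processing notes, with no threshold stated in the sources used here. For each peak the authors deposited a fold ratio at the summit, −log10 p, −log10 q and a score, which is the truncated product of 10 and −log10 q. Coordinates are counted from 1.

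Pileup k and background λ were solved from fold = (k + 1)/(λ + 1) and a Poisson upper-tail p. The pileups came out whole within 0.05 for 100% of peaks in the input lists and the ZIPIC preimmune list. In the Pita and Zw5 preimmune lists (8.63% and 8.45% whole) the precipitate was taken as scaled by 0.533 and 0.525, found from large-arm peaks with the same summit in both lists. With this scale, 99.8% of 653 and 100% of 50 such peaks not used to find it gave the input-list pileup, and 4.49% and 3.94% of peaks allowed more than 1 whole number. The lowest preimmune background was 4.89, 1.06 and 5.40 fragments for Pita, ZIPIC and Zw5. The solution returned 100% of the pileups in data simulated with the same formulas. This checks the solving step only, and not whether the deposited values were computed in this way. Total reads are unknown.

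Overlap required 1 bp, and peaks of the 3 proteins that overlapped were merged into regions. Members, lists and the rule for named sites were chosen with earlier results of these data known. Named were all sites of chromosome 4 and Het called against both controls, the 5 highest such folds per protein on U and on Uextra, all regions of all 3 proteins, all peaks called against preimmune serum alone, and the highest called against input alone per protein and class. Other sites are named as values in a comparison. Alternatives were a −log10 q of at least 5, the preimmune lists, overlap of 50% of the shorter interval, summits within 100 bp, joining within 1 kb, and Uextra left out. The software was scipy 1.17.1, pandas 2.3.3, numpy 2.4.6 and matplotlib 3.10.9 under Python 3.11.15.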

Additional observations from a re-analysis of the deposited data

How the results depend on the processing

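For each protein, the number of members, the share called against both controls, the share overlapping another protein and the median fold were recomputed, and 41 of 60 values stayed within the range set for each. A −log10 q of at least 5 and joining peaks within 1 kb moved none of the 4 measures. Overlap of 50% of the shorter interval and summits within 100 bp, which bear on the shares alone, moved neither share. With the preimmune lists in place of the input lists, the number was 53 for Pita and 7 for Zw5. The share called against both controls, read from the preimmune side, was 57.1% for Zw5, 90.2% for ZIPIC and 94.3% for Pita. The share overlapping another protein was 100%, 9.80% and 17.0% in the same order, and the median fold was 6.15 for ZIPIC and 4.75 for Zw5. Leaving out Uextra was chosen after seeing the data. It left 64, 13 and 22 peaks of Pita, ZIPIC and Zw5, with 65.6% of Pita and 18.2% of Zw5 called against both controls, 25.0% and 77.3% overlapping another protein, and median folds of 7.12 for Pita and 8.26 for ZIPIC. The cause of these changes was not tested. No paired analysis was possible because each protein and control had 1 library. At the depth of the ZIPIC library, peaks off the large arms rested on as few as 10 fragments.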
